A study of Mus musculus with 16 samples.

Results

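The IL-1β response of bone marrow progenitors from diabetic mice was compared with that of control mice, region by region. Every mouse sample had been divided into a baseline and an IL-1β portion, and the unit was the change within a sample: IL-1β minus baseline in log2 summit enrichment, the ratio of reads at the top of a peak to its local background. Portions were matched by the sample number they share in the labels. That the same number marks the same divided sample is not stated there, and every change per sample and every count of groups that do not overlap rests on it. The regions were the 24955 of 102496 merged peak regions that were called in all 16 libraries, and the comparison set 4 diabetic changes against 4 control changes at each. The cells were lineage-negative bone marrow of male C57Bl/6 mice, which the labels call haematopoietic stem cells. The 4 diabetic samples came from mice given streptozotocin (STZ), a toxin of insulin-producing cells, and the 4 control samples from mice with no treatment. Baseline portions were lysed at once and the others were cultured for 6 h with 10 ng/mL IL-1β. No portion was cultured without the cytokine, so a response is to IL-1β together with culture, and the effects of diabetes and of streptozotocin cannot be told apart. The labels do not say whether a sample is 1 mouse or a pool, nor how long diabetes had lasted.

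Interleukin-1β acts through the receptor Il1r1 and the adaptors Myd88, Irak4 and Traf6, which activate NF-κB and the MAP kinases. NF-κB switches on cytokine genes and its own inhibitors, and the MAP kinases act on AP-1 factors such as Fos and Jun and on the phosphatases that end the signal. Blood progenitors carry the receptor, and IL-1 is known to drive them towards myeloid output. ATAC-seq cuts accessible DNA with the Tn5 transposase, so it reads where regulatory DNA is open, not transcription. A mean over a mixed fraction cannot tell a change within cells from a change in the mix of cells.

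Libraries held 37543 to 72525 peaks, and the median summit of a shared region had 27 to 58 reads. The shallowest library was diabetic baseline replicate 4 (27 reads). Of the 18 stem cell genes 15 lay within 10 kb of a region called in every library, as did all 10 granulocyte-monocyte progenitor genes. For mature lineages such a region was found for 1 of 8 mast cell genes, 5 of 10 T and NK cell genes and 6 of 8 B cell genes, with none for Ms4a1 and Cd3e. It was found for 11 of 12 mature neutrophil genes, all 10 monocyte genes, all 10 dendritic cell genes, 8 of 11 erythroid, 7 of 9 megakaryocyte and 5 of 8 stroma and endothelium genes, against 63.2% of all protein-coding genes. These counts do not tell stem cells from several mature types.

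No region passed the test for a different response: at a Benjamini-Hochberg adjusted p below 0.05 in limma, 0 of 24955 regions (0%) had a larger change in diabetic samples and 0 a smaller one. The smallest adjusted p was 0.9995. Without adjustment, 985 regions (3.95%) had a p below 0.05, 608 with the diabetic change higher (2.44%) and 377 with it lower (1.51%). The 4 diabetic and 4 control changes did not overlap at 496 regions (1.99%), 256 with diabetic higher (1.03%) and 240 with diabetic lower (0.962%). At 73 of these regions every diabetic sample moved one way and every control sample the other, 37 up and 36 down in diabetic samples.

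At regions called in every library, intervals of single regions give the size of difference that could be missed. They are not adjusted for the number of regions, so some will not hold the true difference. The median standard error of a difference was 0.192 on the log2 scale. The 95% interval lay within a change of 1 either way, a doubling or halving, at 24510 regions (98.2%). Differences ran from -1.05 to 1.01, with the 1st and 99th percentiles at -0.45 and 0.54. A region with the median standard error would have needed a difference of 1.25 to pass a Bonferroni bound. The Benjamini-Hochberg test used here is less strict, and the size it needs falls with the number of regions that differ and with the standard error.

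Both phenotypes shared a response, tested as the mean of the 2 phenotype means against 0. A large change in 1 phenotype alone can pass this test. Over the 8 samples 2032 regions (8.14%) passed the test: 1256 rose (5.03% of those tested) and 776 fell (3.11%) at an adjusted p below 0.05 in limma, and the mean changes of both phenotypes had the same sign at 2030 of them. The median change of the risen regions was 0.39 in control and 0.35 in diabetic samples, and that of the fallen regions -0.44 and -0.39. The diabetic change was the smaller at 783 of the 1256 risen regions (62.3%) and at 470 of the 776 fallen ones (60.6%). The median difference was -0.06 at the risen and 0.06 at the fallen regions, against -0.02 over all regions. The same 8 samples called these regions, so the shares are a description and no test. At 102 of the 2032 (5.02%) the unadjusted p of the difference was below 0.05, against 3.95% over all regions, and at 63 (3.10%) the samples did not overlap, against 1.99%. The 95% interval of the difference stayed within 1 either way at 1995 of the 2032. These shared counts depended on scaling and on single samples: without scaling 275 rose and 1409 fell, since the median shared change was then -0.10 and not 0.04. Without control replicate 2, control replicate 3 or diabetic replicate 3 in turn, 628, 679 and 653 rose and 433, 460 and 400 fell.

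Tested within each phenotype, 278 regions rose (1.11%) and 202 fell (0.809%) in control samples, and 141 rose (0.565%) and 55 fell (0.220%) in diabetic samples. The 82 regions called in both were 17.1% of the 480 control calls and 41.8% of the 196 diabetic calls, and all 82 had the same direction. Of the 480 control calls 91 (19.0%) had an unadjusted p of the difference below 0.05, against 3.95% over all regions. These regions were chosen for their control change, so that share is a description and no test, and the lengths of the lists do not compare the phenotypes.

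Across regions the diabetic mean change followed the control mean change with a Pearson r of 0.57 and a Spearman rho of 0.52 (24955 regions, which share libraries and are not independent replicates). The slope of diabetic on control change was 0.875 once the sampling variance of the control mean was taken out. With the same correction, slopes of the 4 single diabetic samples on the control mean were 0.782, 0.671, 1.51 and 0.538, an SD of 0.434. A slope of 1 lay inside that spread. Taken the other way round, control on diabetic change, the corrected slope was 1.42. The 2 corrected slopes multiply to more than 1, which slopes free of noise cannot do. Corrected slopes are therefore not sound estimates here, also those of single samples and with samples left out. Ordinary least squares gave 0.511 and the major axis 0.834. Leaving out each sample in turn gave 0.664 to 1.07, the slope passing 1 without control replicate 2 (1.07) or control replicate 3 (1.03), and without scaling it was 1.21.

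**Figure D1:**
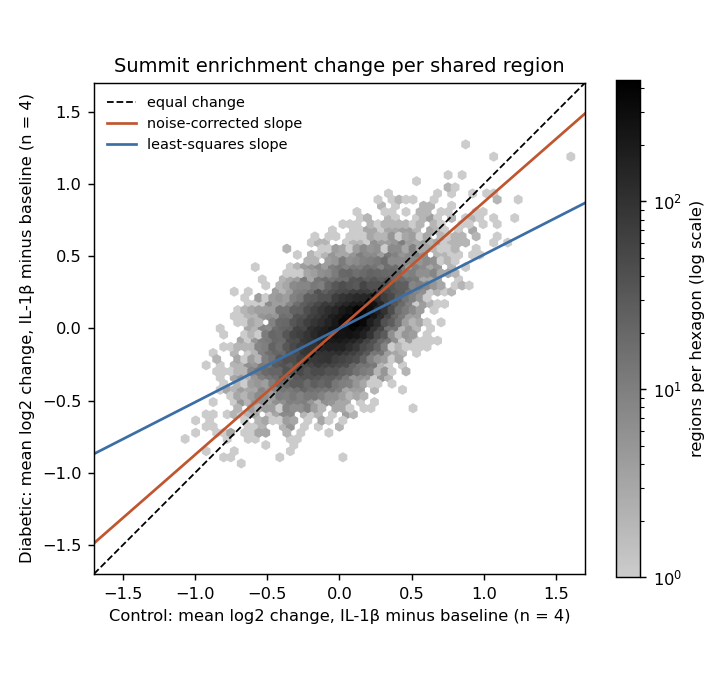
Mean log2 change in summit enrichment (IL-1β minus baseline) of 24955 shared regions, control on the horizontal axis and diabetic on the vertical axis, 4 mouse samples each; the grey scale counts regions per hexagon on a log scale. The cloud runs along the diagonal (r 0.57). The line of the corrected slope of 0.875, not a sound estimate, is drawn close to the dashed line of equal change, and the least-squares slope of 0.511 is flatter.

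The size of the response per sample was taken as the slope of its change on the mean change of the 7 other samples. It was 0.505, 1.11, 0.913 and 0.551 in control replicates 1 to 4 and 0.521, 0.4999, 1.02 and 0.390 in diabetic replicates 1 to 4. High and low samples occurred in both phenotypes and the groups overlapped. The mean was 0.769 ± 0.291 in control and 0.606 ± 0.279 in diabetic samples (SD, n = 4 each), a difference of -0.163 that did not pass a two-sided exact permutation test (p = 0.371, adjusted p = 0.914 over 4 measures; the smallest p that 70 assignments allow is 0.0286). The difference was -0.0489 without control replicate 2 and -0.254 without control replicate 4. The SD of a sample's change over regions was 0.324 ± 0.053 in control and 0.321 ± 0.044 in diabetic samples (SD, n = 4, exact permutation p = 0.914).

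The 3 samples with the largest responses stood apart in other measures as well, and they came from both phenotypes. Control replicates 2 and 3 changed by -24808 and -23348 peaks between baseline and IL-1β, and diabetic replicate 3 by -21895. The other 5 samples changed by between -2200 and 4957 peaks. Median summit reads also dropped in the 3 samples, from 47 to 29, 58 to 33 and 49 to 32. They went from 50 to 48 and 40 to 38 in control replicates 1 and 4. In diabetic replicates 1, 2 and 4 they went from 39 to 37, 42 to 42 and 27 to 31. In those 3 samples regions within 1 kb of a gene end changed by 0.198, 0.169 and 0.187 more than other regions (difference of medians), against -0.040 to 0.036 in the others. Their changes correlated with one another at 0.47 to 0.50 over regions, and all other pairs of samples at 0.08 to 0.29. Without these 3 samples 22 regions rose, 5 fell, and none differed between phenotypes, but fewer samples also weaken the test. At the regions called risen over all 8 samples the median change was 0.44 to 0.55 in these 3 samples and 0.27 to 0.31 in the other 5. At the fallen ones it was -0.47 to -0.52 and -0.30 to -0.40. All 8 samples took part in calling those regions. The part of peak loss and of lower read depth in the shared response was not tested.

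**Figure D2:**
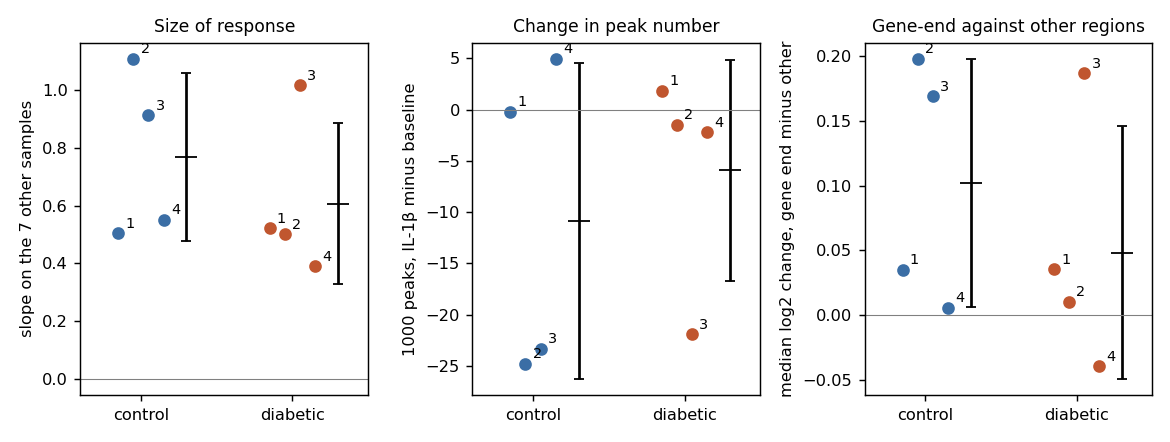
Size of response (slope on the 7 other samples), change in peak number and median log2 change at gene ends minus other regions, 1 numbered point per mouse sample with the mean and SD of 4 beside them. Control replicates 2 and 3 and diabetic replicate 3 have the largest sizes, the largest gene-end shifts and the lowest peak changes.

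The regions that diverged most were described by the order of the moderated statistic, at most 1 per gene, and none passed the adjusted test (adjusted p = 0.9995 for all 16 in limma). Among the 8 with a higher diabetic change, the first lay 11649 bp from Aff1, which encodes a scaffold of the super elongation complex (chr5:103680387-103680713). Its scaled enrichment was 10.7, 12.6, 10.3 and 11.8 at baseline and 8.69, 6.34, 6.17 and 6.25 after IL-1β in control replicates 1 to 4. In diabetic replicates 1 to 4 it was 7.27, 10.2, 9.19 and 7.66 at baseline and 10.7, 11.9, 7.70 and 11.5 after IL-1β. Every control value was lower after IL-1β, 3 of 4 diabetic values were higher, and the changes did not overlap. The difference in log2 change was 1.01 (SE 0.21, unadjusted p = 0.000110), on summits of 11 to 31 reads.

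A region inside Ralgps1, which encodes an exchange factor for Ral GTPases (chr2:33328947-33329332), changed by -0.08, -0.39, -0.03 and -0.30 in control and 0.36, 0.51, 0.42 and 1.04 in diabetic samples. All control changes were below 0 and all diabetic changes above it, a difference of 0.78 (SE 0.18). Scaled enrichment there was already apart at baseline, 11.8 to 13.2 in control and 4.91 to 8.96 in diabetic samples. After IL-1β it overlapped, at 8.98 to 11.6 and 10.1 to 12.7. The change of 1.04 belongs to diabetic replicate 4, whose baseline summit had 8 reads. The same split of changes was seen 34960 bp from Hivep2, a zinc finger factor that binds κB-like motifs (chr10:14186338-14186995). Control changes were -0.12, -0.36, -0.18 and -0.56 and diabetic changes 0.53, 0.47, 0.24 and 0.45. Baselines were apart here too, 10.2 to 11.8 in control and 6.99 to 8.78 in diabetic samples. This split of changes was seen also inside Snx25, a sorting nexin gene (difference 0.75, SE 0.19), and 31805 bp from the Y chromosome gene model LOC665918 (0.79, SE 0.20). Baselines overlapped at Snx25 and LOC665918. At the regions near Nupr1l (0.998, SE 0.24), inside Gm17359 (0.84, SE 0.20) and near Rubcnl, an autophagy regulator (0.76, SE 0.19), all control changes were below 0 and the diabetic changes took both signs. Near Nupr1l the baselines were apart, 9.72 to 13.5 in control and 3.28 to 9.14 in diabetic samples.

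Of the 8 regions with a lower diabetic change, the largest difference lay inside Pcx, which encodes the mitochondrial enzyme pyruvate carboxylase (chr19:4558270-4559153). Its changes were 1.16, 0.59, -0.26 and 0.58 in control and -0.03, -0.83, -0.65 and -0.62 in diabetic samples, a difference of -1.05 (SE 0.26, unadjusted p = 0.000509). Control replicate 3 lay among the diabetic samples, so these groups overlapped. The region inside Alad, an enzyme of haem synthesis (chr4:62516595-62517412), changed by 0.73, 0.21, 0.05 and 0.79 in control and by -0.39, -0.34, -0.47 and -0.45 in diabetic samples. These changes did not overlap (difference -0.86, SE 0.21), and those of the diabetic samples were nearly alike (SD 0.06, against 0.37 in control). Scaled enrichment at Alad was apart at baseline, 3.62 to 6.03 in control and 6.25 to 10.1 in diabetic samples. After IL-1β it overlapped.

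A region inside Il1a, the gene of interleukin-1α (chr2:129306004-129306374), was the one among the 16 at a cytokine gene. Its scaled enrichment at baseline was 8.49, 5.98, 7.12 and 5.54 in control and 7.84, 6.34, 6.48 and 7.10 in diabetic replicates 1 to 4, so the phenotypes overlapped before stimulation. After IL-1β it was 11.7, 8.45, 7.86 and 9.12 in control and 7.88, 5.36, 5.72 and 4.00 in diabetic samples. All control samples were higher after IL-1β and 3 of 4 diabetic samples were lower, a difference of -0.77 (SE 0.22, unadjusted p = 0.00215) on summits of 7 to 34 reads. The difference was -0.98 in recovered reads and stayed between -0.98 and -0.59 over the alternatives run, with limma adjusted p from 0.785 up.

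The other lower regions lay inside Arid1b, a subunit of the BAF chromatin remodelling complex (difference -0.78, SE 0.21), Ccdc88c, a Dishevelled-binding protein (-0.60, SE 0.17), and Hdac4, a class IIa histone deacetylase (-0.78, SE 0.23), and near the gene model Gm40035 (-0.72, SE 0.20). At none of these 4 did the samples overlap. The last was again at Hivep2, inside the gene (chr10:14045769-14046148), with changes of 0.70, 0.83, 0.77 and 0.56 in control and 0.42, -0.18, 0.00 and -0.03 in diabetic samples. The mean of both phenotypes had a called rise at this region (0.38, SE 0.10, adjusted p = 0.0190 in limma), unlike at the other 15. The diabetic mean alone was 0.05. The 2 Hivep2 regions diverged in opposite directions, 0.73 and -0.66.

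**Figure D3:**
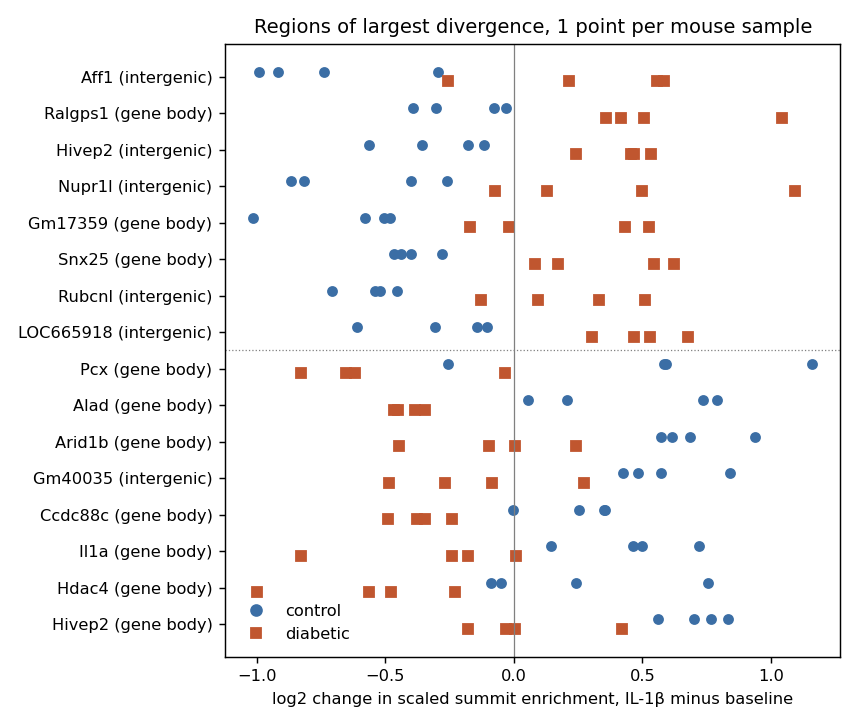
Log2 change in scaled summit enrichment at the 16 most divergent regions (8 diabetic higher above the dotted line, 8 diabetic lower below it), named by nearest gene, 1 point per mouse sample. At every region but Pcx the 4 control circles and 4 diabetic squares occupy separate ranges; the regions were chosen for this order.

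The regions with the smallest p values of the difference were weak peaks away from genes' ends. The 100 smallest had a median of 23 reads at the summit, against 40 over all regions, and 10% of them were gene-end regions, against 39.8%. If reads at a summit were independent counts, a change in reads would have an expected SD of 0.340. The median SD between samples of a phenotype was lower, 0.280, so that expectation is too high for these summits. For the 496 regions without overlap the share at gene ends was 32.1%.

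The largest shared rises and falls were picked by the mean of both phenotypes, which favours regions where both moved the same way. The largest rise was inside Fosb, which encodes a subunit of AP-1 (chr7:19307722-19308969). Its scaled enrichment rose from 3.64, 2.87, 3.18 and 3.04 to 8.13, 11.3, 9.36 and 9.90 in control replicates 1 to 4. In diabetic replicates 1 to 4 it rose from 4.08, 4.53, 3.21 and 6.01 to 8.33, 9.36, 10.5 and 11.3. All 8 samples rose, control by 1.60 ± 0.34 and diabetic by 1.18 ± 0.36 (SD, n = 4), and the changes overlapped (difference -0.42, 95% interval -0.90 to 0.06). A region at the start of Klf2, a transcription factor of quiescent cells, rose by 1.25 ± 0.22 in control and 0.92 ± 0.28 in diabetic samples (SD, n = 4; difference -0.33, interval -0.76 to 0.09).

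These 2 rises in the ratio did not come with more summit reads. At Fosb the summit held 105 to 147 reads in control and 76 to 118 in diabetic baseline libraries, and 62 to 84 after IL-1β. Scaled reads there fell (shared change -0.30, adjusted p = 0.00285 in limma), with a difference of 0.10 between phenotypes, so the direction at Fosb reverses with the measure. At Klf2 scaled reads changed by 0.03 and did not pass the test (adjusted p = 0.817 in limma). The surroundings, the denominator of the ratio, fell at both loci. Near Ankrd12, an ankyrin repeat cofactor gene, reads rose instead, from 8 to 18 at baseline to 27 to 59 after IL-1β. Its log2 enrichment rose by 1.06 ± 0.23 in control and 1.17 ± 0.17 in diabetic samples (SD, n = 4).

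The promoters of Fosb and Klf2 lie in regions with a called rise. At the Lcn2 promoter region the changes of the phenotypes did not overlap, while baseline levels did. These 3 promoters come from RefSeq (GRCm38.p6, the coordinates of mm10). They are Fosb chr7:19309996-19310295 (minus strand), Klf2 chr8:72318812-72319111 (plus strand) and Lcn2 chr2:32387690-32387989 (minus strand), from 250 bases before to 50 after the start. Capitals mark the one match to the κB motif, at -188 in Fosb.
Fosb: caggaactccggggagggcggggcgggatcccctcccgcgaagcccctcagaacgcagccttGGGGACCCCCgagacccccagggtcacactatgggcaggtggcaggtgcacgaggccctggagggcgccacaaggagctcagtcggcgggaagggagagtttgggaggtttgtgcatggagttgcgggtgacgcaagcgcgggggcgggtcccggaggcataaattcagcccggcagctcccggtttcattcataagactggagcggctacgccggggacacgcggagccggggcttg
Klf2: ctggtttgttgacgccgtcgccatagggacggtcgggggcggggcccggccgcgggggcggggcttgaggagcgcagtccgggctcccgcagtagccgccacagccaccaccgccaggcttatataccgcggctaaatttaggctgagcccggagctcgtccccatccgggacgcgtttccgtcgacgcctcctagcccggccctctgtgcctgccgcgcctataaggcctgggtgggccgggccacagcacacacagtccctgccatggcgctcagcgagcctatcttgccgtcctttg
Lcn2: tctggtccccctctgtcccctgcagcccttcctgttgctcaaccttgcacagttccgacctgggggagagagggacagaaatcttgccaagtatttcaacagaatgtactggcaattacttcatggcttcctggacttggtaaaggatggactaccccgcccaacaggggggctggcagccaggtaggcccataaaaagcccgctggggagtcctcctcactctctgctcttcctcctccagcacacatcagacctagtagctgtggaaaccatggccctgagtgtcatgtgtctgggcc
The κB motif was found in 8.46% of 32851 RefSeq promoters of this length, on either strand. The CArG box (1.63% of promoters), TGANTCA (7.81%) and TGACGTCA (1.79%) had no match in these 3 windows. The Fosb promoter region itself (chr7:19309868-19310543) rose by 1.22 in control and 0.79 in diabetic samples.

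The largest falls, picked by the same mean, were seen in both phenotypes. Inside Ssbp2, which encodes a partner of LDB1 complexes (chr13:91509456-91509904), scaled enrichment fell from 7.71 to 10.9 at baseline to 3.24 to 6.52 after IL-1β, by 1.05 in control and by 0.77 in diabetic samples. Reads at its summit fell from 28 to 52 down to 8 to 16. A region 16676 bp from Poc1b, a centriole protein gene, fell by 0.92 and by 0.85, and one 41079 bp from Tnfsf15, a TNF family cytokine gene, by 1.01 and by 0.71. At each of these 3 falls the samples of both phenotypes overlapped (differences 0.28, 0.07 and 0.30).

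Lists of genes were read by counts and medians. Over 23 lists, 748 regions lay within 10 kb of a member, none was called for the difference, 28 (3.74%) had an unadjusted p below 0.05, against 3.95% over all regions, and 13 (1.74%) did not overlap between phenotypes, against 1.99%. Risen and fallen counts of the lists stand against 5.03% and 3.11% over all regions. Without scaling they stand against 275 risen and 1409 fallen of 24955 regions, and by summit reads against 2400 and 1294. Among 52 regions of the IL-1 receptor and its adaptors 6 rose and 2 fell in the shared response, and 3 and 4 without scaling. Their median change was 0.04 in control and 0.05 in diabetic samples (all regions 0.05 and 0.03). The smallest p of this list was inside Il1r2, the decoy receptor that binds IL-1 without signalling (chr1:40116428-40116811), with changes of -0.11, -0.73, -0.69 and -0.79 in control and -0.35, 0.51, -0.17 and 0.43 in diabetic samples. Control replicate 1 lay within the diabetic range (difference 0.68, SE 0.22, unadjusted p = 0.00629).

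Of 53 regions of NF-κB subunits and feedback genes 6 rose and 1 fell (1 and 3 without scaling), with a median change of 0.12 in control and 0.08 in diabetic samples. Inside Tnip1, a partner of the ubiquitin editor A20, all control changes were below 0 (-0.08, -0.07, -0.04 and -0.16) and all diabetic ones above it (0.42, 0.13, 0.08 and 1.21). The value of 1.21 belongs to diabetic replicate 4, whose baseline summit had 11 reads. Of 31 cytokine and chemokine regions 5 rose and none fell (none and 2 without scaling), with medians of 0.11 and 0.04, and no region called in every library lay near Il6, Ccl2, Ccl5 or Ccl7.

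AP-1 and immediate early genes had a median change of 0.27 in control, the highest of the 23 lists, and of 0.15 in diabetic samples, next to 0.16 at the 4 mast cell regions. Of 67 regions 24 rose and none fell, and under the other scalings 19 or 20 rose and at most 1 fell. The median difference was -0.14, against -0.02 over all regions. Per sample the list's median was 0.15, 0.49, 0.36 and 0.16 in control and 0.11, 0.16, 0.40 and 0.07 in diabetic samples, highest in the 3 samples that lost peaks, and the groups overlapped. By summit reads 5 of these regions rose and 11 fell, where 2400 of all 24955 regions rose and 1294 fell. The median difference was then 0.04, so the direction of this list also reverses with the measure. The clearest split in enrichment lay 7559 bp from Dusp1, the phosphatase that ends MAP kinase signals (chr17:26497295-26498032), with changes of 0.29, 0.34, 0.41 and 0.30 in control and -0.14, 0.04, -0.20 and 0.00 in diabetic samples. The difference was -0.41 (SE 0.15, unadjusted p = 0.0115), and -0.06 by reads.

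Lists chosen for diabetes had median differences between -0.05 and 0.02, against -0.02 over all regions. Their counts are set against 5.03% of all regions risen and 3.11% fallen, and without scaling against 275 risen and 1409 fallen of 24955. For glucose uptake and glycolysis, 7 of 76 regions rose and 2 fell, and 1 rose and 3 fell without scaling (median difference -0.02). For insulin signalling 2 of 69 rose (-0.05), and for chromatin enzymes linked to metabolic memory 2 of 54 rose (-0.05). For the S100 alarmins and receptors of glycated proteins 2 of 30 rose and 1 fell, without scaling 1 and 4 (0.02). The region with the smallest p of the glycolysis list lay at an end of Pdcd2l, within 10 kb of Gpi1, the glycolytic isomerase (difference -0.44, no overlap). That of the chromatin list lay at an end of Hsd3b7, within 10 kb of Setd1a, a histone H3 lysine 4 methyltransferase (0.49). The others were at Mlxip, a glucose-sensing factor (0.53), and Cd14, the lipopolysaccharide co-receptor (0.36, unadjusted p = 0.0996).

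For Nrf2 antioxidant genes 4 of 37 regions rose and 2 fell (3 and 4 without scaling), one of those 2 546 bp from Srxn1, which restores oxidised peroxiredoxin. The mean of both phenotypes had a called fall there (adjusted p = 0.0436 in limma), but the change was -0.02 in control and -0.70 in diabetic samples. Control samples took both signs. The difference was -0.68 (SE 0.21, unadjusted p = 0.00474 in limma), with overlapping samples. Glucocorticoid response genes had 6 of 34 risen (3 without scaling; median difference -0.09) and sterol genes 6 of 36 (2 without scaling; -0.03).

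Among the 11 lists of cell type markers, stem cell genes had the most negative median difference, -0.11 over 23 regions, of which 1 rose. Per sample the list's median was 0.08, 0.17, 0.12 and -0.02 in control and 0.00, -0.02, 0.09 and -0.05 in diabetic samples. The groups overlapped. At 2 of the 23 the diabetic changes lay below all control ones, against 0.962% of all regions. Inside Lmo2, a factor of stem cells, the difference was -0.45 (SE 0.21) with overlapping samples. Mature neutrophil genes had 3 of 29 regions risen and 2 fallen, without scaling 2 and 5 (median difference 0.00). At the promoter region of Lcn2, a granule protein gene, scaled enrichment was 8.74, 7.75, 7.63 and 8.56 at baseline and 4.71, 5.71, 5.85 and 5.69 after IL-1β in control samples. In diabetic samples it was 7.42, 7.74, 6.50 and 5.46 at baseline and 5.94, 6.03, 6.82 and 6.38 after IL-1β. Control changes (-0.38 to -0.89) lay below all diabetic ones (-0.36 to 0.22), a difference of 0.48 (SE 0.21, unadjusted p = 0.0343 in limma). The nearest changes, -0.38 and -0.36, were close, and diabetic replicate 4 had 9 baseline reads at this summit. Reads at this summit rose in both phenotypes together with their surroundings (shared change 0.88, adjusted p = 4.04e-06 in limma). In scaled enrichment none of the erythroid, megakaryocyte, mast cell, B cell or T and NK cell regions rose or fell. Without scaling 1 B cell region fell. By summit reads 2 of 17 megakaryocyte and 2 of 11 B cell regions rose and 3 of the 4 mast cell regions fell, where 2400 of all 24955 regions rose and 1294 fell. The part of the marker regions in the other results was not tested.

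**Figure D4:**
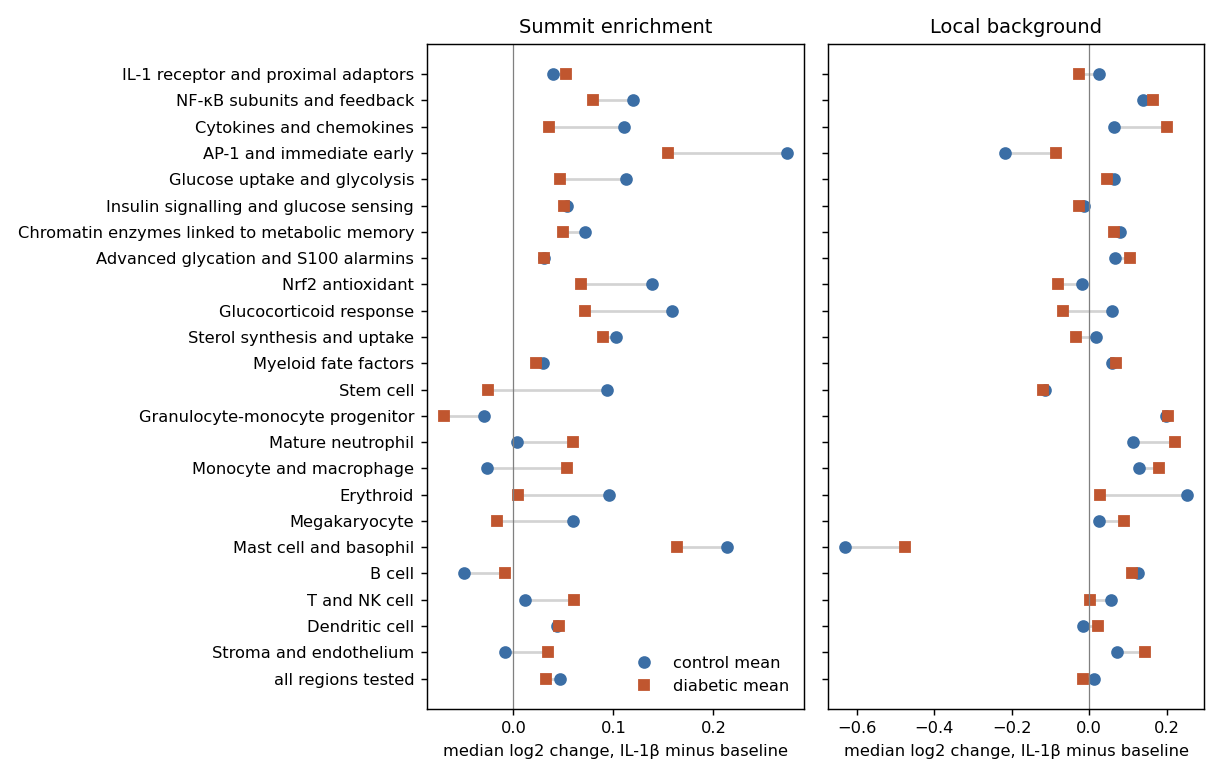
Median log2 change (IL-1β minus baseline) of the regions of 23 gene lists and of all regions tested, for summit enrichment (left) and local background (right); circles are control and squares diabetic means of 4 mouse samples. AP-1 genes have the highest control median on the left (0.27, diabetic 0.15) and medians below 0 on the right (-0.22 and -0.08).

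Because fold and reads parted at the immediate early genes, the local background itself was examined as a measure, a step chosen after seeing the data. It is the number of reads expected at a summit from its surroundings, so it reads accessibility around a peak. At the 19950 regions where it exceeded its floor, 2860 rose (14.3%) and 2383 fell (11.9%), and again no region differed between phenotypes (0%, smallest adjusted p = 0.982 in limma). Unadjusted, 480 regions (2.41%) had a p below 0.05. The diabetic change followed the control change with an r of 0.80 and a corrected slope of 0.936 across regions. Control on diabetic change gave 1.22, so these 2 slopes also multiply to more than 1 and are not sound estimates. Sizes of response were 0.911 ± 0.186 in control and 0.799 ± 0.106 in diabetic samples (SD, n = 4, exact permutation p = 0.371). The 95% interval of the difference lay within 1 either way at 99.9% of regions and within 0.5 at 80.4%.

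The largest falls were at Fosb, Fos, Dusp1, Tsc22d3 and Klf2, genes of immediate early, glucocorticoid and quiescence programmes. Around Fosb the scaled background was 24.04, 33.1, 28.8 and 33.1 reads at baseline in control and 22.6, 22.8, 25.4 and 19.1 in diabetic samples. After IL-1β it was 7.09, 7.07, 7.49 and 7.51 in control and 8.22, 7.39, 7.57 and 7.59 in diabetic samples. The phenotypes thus ended at like levels from baselines that touched only at control replicate 1. The changes were -1.76, -2.23, -1.94 and -2.14 in control and -1.46, -1.63, -1.74 and -1.33 in diabetic samples, with no overlap (difference 0.48, SE 0.12, unadjusted p = 0.00139, adjusted p = 0.982 in limma).

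At Fos the control changes of -1.48, -1.798, -1.54 and -1.88 also lay below the diabetic ones of -1.30, -1.38, -1.38 and -1.10 (difference 0.38, SE 0.11). Tsc22d3, which encodes the glucocorticoid-induced leucine zipper, had a difference of 0.45 (SE 0.14) without overlap. Dusp1 (0.41, SE 0.16) and Klf2 (0.20, SE 0.13) overlapped. Leaving out diabetic replicate 4, the shallow baseline, gave 0.41 at Fosb, 0.32 at Fos, 0.45 at Tsc22d3 and 0.27 at Dusp1. Without the 3 samples that lost peaks the values were 0.48, 0.42, 0.35 and 0.60. Unscaled they were 0.83, 0.73, 0.79 and 0.76, where all regions had a median difference of 0.33.

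**Figure D5:**
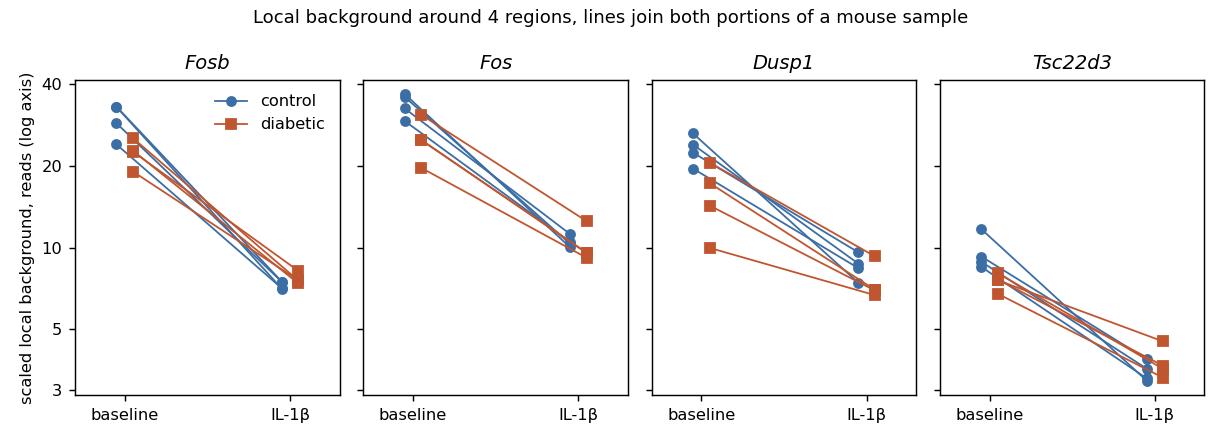
Scaled local background in reads (log axis) around the regions of Fosb, Fos, Dusp1 and Tsc22d3; each line joins the baseline and IL-1β portion of 1 mouse sample, control in blue circles and diabetic in orange squares. All lines fall, and diabetic lines start lower on average while the ends overlap; around Fosb all 8 end between 7.07 and 8.22 reads.

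Over the AP-1 and immediate early list 36 of 67 regions fell in local background and 7 rose, against 11.9% fallen and 14.3% risen over all regions. The median change was -0.22 in control and -0.08 in diabetic samples (difference 0.11, all regions -0.02). Fallen regions belonged to 13 genes, Atf3, Dusp1, Dusp6, Egr1, Egr2, Fos, Fosb, Ier2, Jun, Junb, Jund, Nr4a1 and Nr4a3. Risen ones belonged to Batf, Dusp2, Dusp5, Ier3, Junb and Maff. At 8 regions all diabetic changes lay above all control ones and at 0 below (1.04% and 1.23% of all regions). The 8 lay at 3 genes, Fosb, Fos and the nuclear receptor gene Nr4a1, and neighbours share surroundings, so they are not 8 separate observations. Leaving out each sample in turn gave 8 to 18 above, with the background of all regions then at 1.48% to 3.09%; without control replicate 3 it was 18 (2.25%). It gave at most 2 below, without control replicate 2. Without the 3 samples that lost peaks 25 lay above and 3 below (10.5% of all regions above). Without scaling 25 regions fell and none rose, where 863 of all 19950 regions fell and 135 rose. With 0 above and 0 below, the median difference was then 0.46, against 0.33 over all regions.

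Other lists moved differently in local background. Granulocyte-monocyte progenitor genes had 11 of 21 regions risen and 1 fallen, mature neutrophil genes 12 of 26 and 3, and NF-κB genes 20 of 49 and 2. Over all regions 14.3% rose and 11.9% fell. Without scaling the 3 lists had 1 and none, 2 and 2, and 2 and 1, where 135 of all 19950 regions rose and 863 fell. The risen counts of these lists thus shrank without scaling, as they did over all regions. At Csf3r, the G-CSF receptor gene, a region rose from 4.13 to 5.78 reads in control and from 2.93 to 5.06 in diabetic samples (group means; difference 0.36, SE 0.14, no overlap). The 4 regions of the mast cell list, all at Hdc, the histamine-forming enzyme, fell, scaled or not, with a median change of -0.63 in control and -0.48 in diabetic samples. Among the largest rises, Tmbim1, a regulator of apoptosis, rose by 1.22 in control and 0.92 in diabetic samples, and Btg1, an antiproliferative gene, by 1.04 and 0.98. The smallest p of the difference was inside Olfml2b, an extracellular matrix gene, with changes of -0.38, -0.72, -0.57 and -0.75 in control and 0.03, 0.15, -0.29 and 0.21 in diabetic samples (difference 0.63, SE 0.13, unadjusted p = 0.000249).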

How the data were processed

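The data are 16 deposited peak lists (mm10), 1 per library, from 50000 cells each. MACS2 2.1.1, DiffBind 2.4.8, Bowtie2 2.2.6, edgeR, Trim Galore 1.8 and FastQC 0.11.3 are named, with no role, per the submitters' processing notes. Read shifting for Tn5 and removal of duplicates are not given in the sources used here; both alter reads per summit. The authors deposited for each summit a fold enrichment (a ratio to local background), a −log10 p and a −log10 q, and a score, which was not used.

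Lists were merged at any overlap. The highest fold per region and library was taken as log2, scaled to equal medians, and differenced within each mouse sample. Changes were fitted in limma 3.58.1 (R 4.3.3) with 2 phenotype means and a trended variance; p values are two-sided, adjusted over all 24955 regions and, where marked, unadjusted. Single values per sample used exact permutation tests. Noise correction of a slope subtracts the sampling variance of the mean change from the variance over regions. Summit reads and local background follow from the deposited fold and p by MACS2's formulas (tolerance 0.001 in −log10 p, met for at least 99.9987% of summits per library). Local background was used where it exceeded 1.05 times its lowest value in a library.

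The series design says each sample was split; numbers were taken to pair portions within a phenotype, and pair no animals across phenotypes. As a check, both portions' departures from their group's mean correlated over regions at 0.29, 0.14, -0.03 and -0.07 in control and 0.24, 0.17, -0.12 and 0.26 in diabetic replicates 1 to 4. Genes come from RefSeq's GRCm38.p6 table (21896 protein-coding genes), and all 321 list symbols matched. Named regions are the 8 most positive and 8 most negative statistics of the difference, at most 1 per nearest gene within 50 kb, the smallest p of each list, and the 3 largest shared rises and falls. Local background regions were named by the largest shared changes, smallest p and lists. Members, lists and tests were chosen with earlier results of these data known. Scripts were tested on simulated data. Items withheld for evaluation are not reported here.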

Additional observations from a re-analysis of the deposited data

Results flagged for a closer look

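One value of 52 groups of 4 tested lay far from the others of its group. Diabetic replicate 3 changed by -21895 peaks between baseline and IL-1β, where the other 3 diabetic samples changed by -2200 to 1827; its gap was 0.830 of the group's range, just past Dixon's 95% limit for 4 samples. Chance marks about 1 in 20 such groups. Control replicates 2 and 3 had losses of the same size, so no control sample stood alone.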

How the results depend on the processing

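Of 23 alternatives run, 20 test every region, and no region differed between phenotypes under any of these 20. Shared risen and fallen counts moved to 275 and 1409 without scaling, 2400 and 1294 by recovered reads, 502 and 351 with the mean over summits, 544 and 359 for regions above the median level, and 22 and 5 without the 3 samples that lost most peaks. With the change in peak number as a covariate 2517 rose. Without one sample in turn 628 to 1277 rose and 400 to 882 fell. The shared local background counts became 994 risen and 744 fallen without the 3 samples, and 135 and 863 unscaled. The difference in spread reversed to 0.0299 by reads, 0.0250 without the 3 samples, and ranged from -0.0242 to 0.0185 without one sample in turn. Of 845 values at named regions 840 kept their direction and 5 reversed. Reversals were Fosb by reads (0.10), Ankrd12 by reads (-0.0036) and Poc1b with the covariate (-0.043). Poc1b also reversed without control replicate 2 (-0.055) or diabetic replicate 1 (-0.091). Without each sample in turn Poc1b ran from -0.091 to 0.249. No named region had a called difference to keep or lose. Regions named for their difference or smallest p were chosen in these same libraries, so a kept direction is a description and no test. Size could change under a kept direction: at the Dusp1 region named for summit enrichment the difference went from -0.41 to -0.06 by reads. The causes of the reversals and of the moved counts were not tested.

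Without the replicate block, as 4 group means over 16 libraries, 0 regions differed and 978 rose and 551 fell in the shared response. For local background 2237 rose and 1832 fell, and here too no region differed. The alternatives with 3 samples left out, gene-end scaling, the covariate and the local background were chosen after seeing the data.

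Depth limits all of this. Regions called in every library leave out those that gained or lost a call, the median summit had 40 reads, and total reads are not given in the files, so intervals rest on the spread of 4 samples.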
